A study of Mus musculus with 6 samples.

Results

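The genes described here make cholesterol and fatty acids, sense the sterol content of the cell, or carry sterol between and out of its membranes. They were chosen by a list of 36 gene symbols, and 34 of the 36 had a probe set annotated to that symbol alone, out of 18193 genes named on the arrays. For each gene the probe set with the highest mean log2 signal over all 6 arrays was used, so the choice did not use the difference between tissues. The symbols Acat2 (an acetyl-CoA acetyltransferase) and Nr1h2 (one of the liver X receptors) were not analysed here. All 34 genes passed the filter on low signal and were tested, within 11645 tested genes.

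RNA was measured in sorted megakaryocyte progenitors, the cells that give rise to the platelet-forming megakaryocytes, from 2 tissues of C57BL/6 mice. The first group was adult bone marrow at 12 to 18 weeks of age and the second was fetal liver at E13.5, with 3 arrays each. Both groups carried the genotype given as GATA1s, a form of the transcription factor GATA1 that lacks its amino-terminal part, so no difference below can be tied to the genotype, and tissue and age cannot be told apart. The sort took lineage-negative, Sca-1-negative cells with c-kit, CD150 and CD41. The labels call the samples biological replicates without saying how many animals gave each, so p-values cover only how far these samples spread.

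As background, cholesterol is built from acetyl-CoA in a long chain of enzymes. The first part runs through mevalonate to the isoprenoid farnesyl diphosphate, and the second joins that isoprenoid into squalene and folds and trims it to cholesterol. The transcription factors encoded by Srebf1 and Srebf2 (the SREBPs) switch these enzymes on when sterol in the endoplasmic reticulum is low; the escort protein SCAP carries them to the Golgi, and the INSIG proteins hold them back when sterol is high. The liver X receptors (LXRs) respond to oxidised sterols and switch on genes of efflux, such as Abca1 and Abcg1, and Mylip, which removes lipoprotein receptors from the cell surface. Dividing blood progenitors need sterol and fatty acids for new membrane, and megakaryocytes later build an extensive internal membrane system.

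The main pattern is a lower signal of part of the synthesis enzymes in bone marrow progenitors. Mylip, Abca1, Insig1, Scd1 and Sc5d had a higher signal, and of these Scd1 and Sc5d also encode synthesis enzymes. With limma and Benjamini-Hochberg adjustment over all tested genes (threshold 0.05), 10 of the 34 genes were lower and 5 were higher in bone marrow than in fetal liver, and 19 were not called. Over all tested genes, 17.8% were called lower and 18.3% higher, or 36.1% in either direction. The members' share called lower was 29.4%. Their share called higher, 14.7%, was below that of all tested genes. Of the 18 enzymes of the mevalonate and sterol steps, 8 were lower, 1 was higher and 9 were not called. Their median log2 fold change, bone marrow minus fetal liver here and throughout, was -0.34, against -0.10 for all 34 members and -0.04 for all tested genes. The members and roles were chosen with earlier results of these data known, so these counts are a description.

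**Figure D1:**
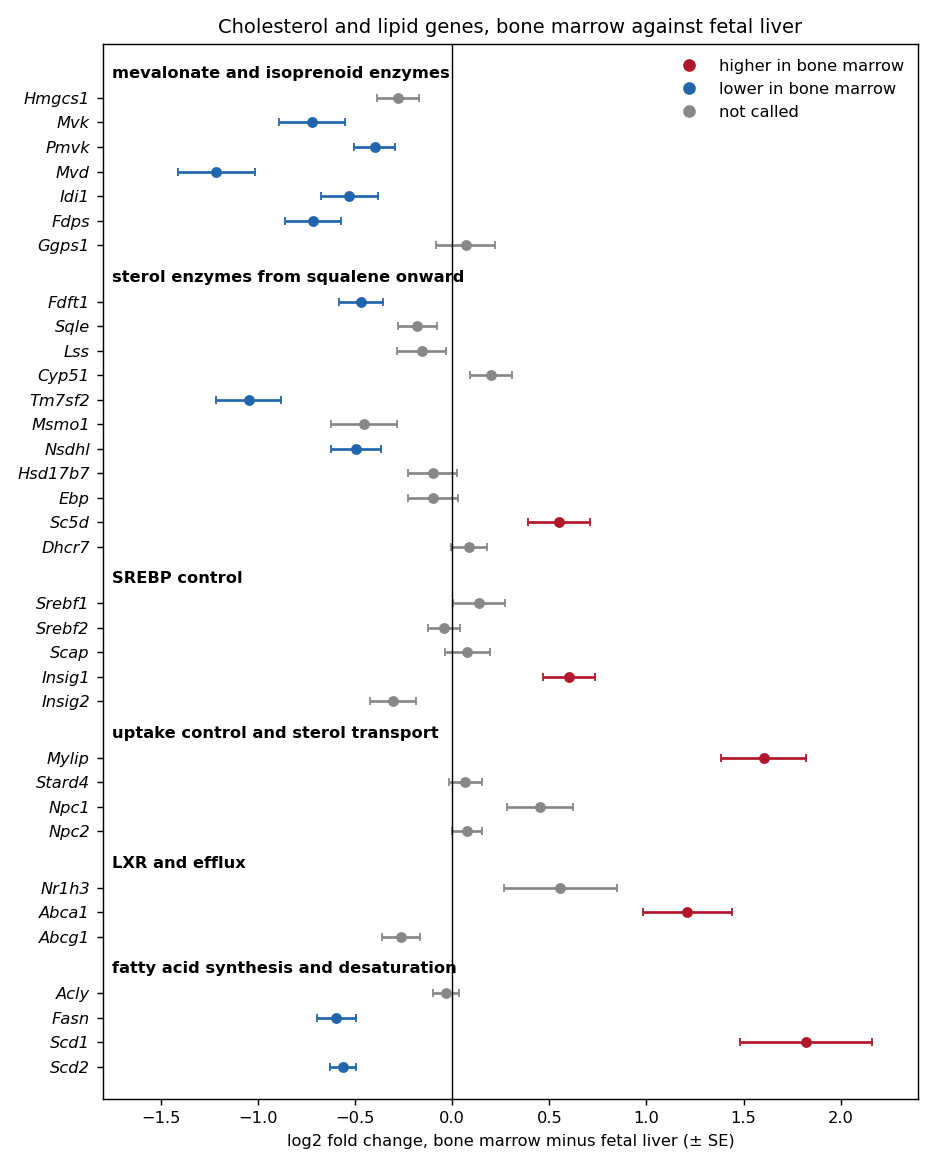
Log2 fold change, bone marrow minus fetal liver, of the 34 genes by role, with bars of 1 SE from limma (3 arrays in each tissue). Blue points were called lower in bone marrow, red points higher, and grey points were not called; the lowest point is Mvd at -1.21 and the highest Scd1 at 1.82.

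The 3 promoters below belong to the enzymes with the largest falls in their roles, Mvd, Tm7sf2 and Fasn. They are shown because most listed genes with a promoter sequence at hand, whether called or not, held a short motif there. The motif CCAAT is the binding sequence of the factor NF-Y, which is known to work together with SREBPs at promoters of sterol genes. Each stretch is the 150 bases before the gene's start, written 5′ to 3′ on the gene's strand from RefSeq (GRCm38.p6), with CCAAT in capitals, or ATTGG where it lies on the opposite strand.

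Mvd, chr8:122443423-122443572, minus strand: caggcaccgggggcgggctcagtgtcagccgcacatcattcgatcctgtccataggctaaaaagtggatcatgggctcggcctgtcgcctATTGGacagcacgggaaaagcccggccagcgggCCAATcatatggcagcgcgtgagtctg

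Tm7sf2, chr19:6067851-6068000, minus strand: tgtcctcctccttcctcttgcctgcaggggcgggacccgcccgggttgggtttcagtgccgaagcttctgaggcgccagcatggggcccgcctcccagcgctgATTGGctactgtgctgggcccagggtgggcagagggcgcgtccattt

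Fasn, chr11:120824548-120824697, minus strand: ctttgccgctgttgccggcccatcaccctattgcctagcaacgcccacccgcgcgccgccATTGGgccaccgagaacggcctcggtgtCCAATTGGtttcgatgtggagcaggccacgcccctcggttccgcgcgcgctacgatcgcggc

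Mvd held 2 copies of the motif in this stretch, Tm7sf2 held 1, and Fasn held 3, of which 2 overlap on opposite strands. Windows of 300 bases, 250 before to 50 after the start, were given for 28 of the 36 listed genes. In them CCAAT was found on either strand for 23 of 28 listed genes (82.1%), against 11096 of 27025 genes in the whole promoter table (41.1%). Genes with several windows counted once if any window held it. The motif did not mark the direction of change. Among members with a window it was found for 7 of 7 called lower, 3 of 4 called higher and 13 of 15 not called. No window was given for Fdps, Fdft1 and Scd2, called lower, or for Scd1, called higher. The member called higher that had a window but no match was Abca1, whose stretch before the start is given for comparison.

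Abca1, chr4:53159896-53160045, minus strand: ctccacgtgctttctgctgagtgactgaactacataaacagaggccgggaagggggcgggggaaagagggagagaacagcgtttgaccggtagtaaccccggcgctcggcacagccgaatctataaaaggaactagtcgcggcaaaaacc

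The sterol element searched as TCACNCCAC on either strand, a form of the SREBP binding sequence, was rare, with 388 of 27025 genes (1.4%). Among the listed genes it was found only for Hmgcs1, whose 150 bases before the start follow, with the element and 1 opposite-strand CCAAT in capitals; the 2 motifs do not overlap. A match is a description of letters, and other forms of the element were not searched.

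Hmgcs1, chr13:119690201-119690350, plus strand: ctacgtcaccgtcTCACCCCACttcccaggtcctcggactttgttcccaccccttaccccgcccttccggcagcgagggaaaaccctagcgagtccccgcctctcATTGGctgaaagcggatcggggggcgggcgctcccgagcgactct

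Of the 7 tested mevalonate and isoprenoid enzymes, 5 (71.4%) were lower in bone marrow and none was higher. Among all tested genes 17.8% were lower and 18.3% higher. In 6 of the 7, every bone marrow array lay below every fetal liver array. Over all 34 members such full separation was seen downward in 16 and upward in 7, against 26.7% and 23.7% of all tested genes (50.5% in either direction). Mvd, the decarboxylase that ends the mevalonate steps, had signals of 248, 229 and 228 on the bone marrow arrays and 404, 600 and 669 on the fetal liver arrays. The groups did not overlap, and its mean was 235 ± 11.4 in bone marrow and 558 ± 138 in fetal liver (mean ± SD of 3 arrays each). The log2 fold change was -1.21 ± 0.20 (SE; limma adjusted p = 0.00137), or 2.32-fold lower in bone marrow. Mvk, the kinase that first acts on mevalonate, had 237, 229 and 232 in bone marrow and 312, 410 and 444 in fetal liver, with a log2 fold change of -0.72 ± 0.17 (adjusted p = 0.00979). Its bone marrow arrays lay close together, while the fetal liver arrays spread, with replicate 1 the lowest.

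Fdps makes farnesyl diphosphate, the branch point to sterols, ubiquinone and protein prenylation. It had signals of 1328, 989 and 1058 in bone marrow and 1600, 1817 and 2118 in fetal liver, with no overlap (log2 fold change of -0.72 ± 0.14 at an adjusted p of 0.00449). Idi1, the isomerase before it, had 2058, 2158 and 2047 in bone marrow and 2311, 3509 and 3373 in fetal liver (log2 fold change of -0.53 ± 0.15 at an adjusted p of 0.0213). Fetal liver replicate 1 lay near the bone marrow arrays for Idi1, and the other fetal liver arrays well above. The call of Idi1 was lost without bone marrow replicate 1 (adjusted p = 0.0538) or 3 (0.0643) and without fetal liver replicate 2 (0.0686) or 3 (0.0786). Pmvk, the kinase after Mvk, had 809, 739 and 757 in bone marrow and 971, 1075 and 994 in fetal liver (log2 fold change of -0.40 ± 0.11 at an adjusted p of 0.0171). Its groups did not overlap, but its call was lost without bone marrow replicate 2 (adjusted p = 0.0574) or 3 (0.0690) or fetal liver replicate 3 (0.0505).

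The other 2 enzymes of these steps were not called. Hmgcs1, the synthase that makes the precursor of mevalonate, averaged 3646 ± 180 in bone marrow and 4454 ± 684 in fetal liver (mean ± SD of 3 arrays each), with a log2 fold change of -0.28 ± 0.11 (adjusted p = 0.0737). It was called lower without fetal liver replicate 3 (log2 fold change of -0.36 at an adjusted p of 0.0461). Ggps1, which makes the longer isoprenoid used to prenylate small GTPases, averaged 1124 ± 54.0 in bone marrow and 1087 ± 236 in fetal liver, and its arrays overlapped (log2 fold change of 0.07 ± 0.15 at an adjusted p of 0.751).

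**Figure D2:**
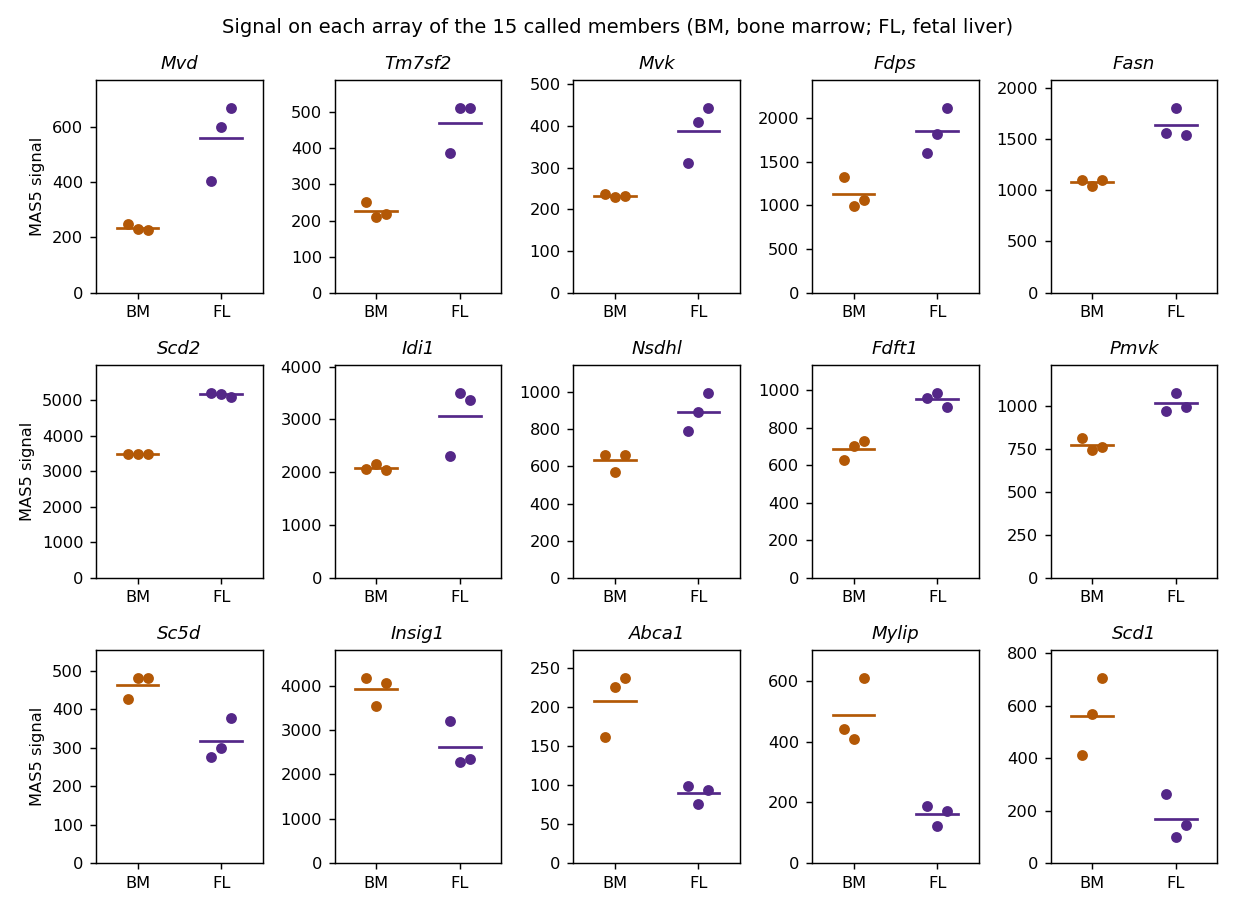
MAS5 signal on each array (points, linear axis from 0) and group mean (line) of the 15 called genes, bone marrow at left and fetal liver at right of each panel. No panel has overlapping groups; the bone marrow arrays of Scd2 lie between 3493 and 3501, all below its fetal liver arrays at 5104 to 5216.

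Of the 11 enzymes from squalene onward, 3 were lower in bone marrow, 1 was higher and 7 were not called. The share called in either direction, 36.4%, was near the 36.1% of all tested genes. The share called lower was 27.3%, against 17.8% of all tested genes. Tm7sf2, a sterol reductase, had signals of 252, 211 and 217 in bone marrow and 388, 511 and 513 in fetal liver. Its arrays did not overlap, and it was 2.07-fold lower in bone marrow (log2 fold change of -1.05 ± 0.17 at a limma adjusted p of 0.00130). Nsdhl, a dehydrogenase that helps remove methyl groups from the sterol ring, had 661, 573 and 665 in bone marrow and 791, 895 and 998 in fetal liver (log2 fold change of -0.50 ± 0.13 at an adjusted p of 0.0159). Its call was lost without bone marrow replicate 2 (adjusted p = 0.0589) or fetal liver replicate 3 (0.0706). Fdft1, the squalene synthase that commits isoprenoids to sterol, had 628, 702 and 732 in bone marrow and 959, 987 and 908 in fetal liver (log2 fold change of -0.47 ± 0.11 at an adjusted p of 0.0105). By the platform's naming, its probe set is of a kind (suffix x_at) that can share probes with other sequences.

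Sc5d, a sterol desaturase near the end of the chain, went the other way. Its signals were 426, 482 and 482 in bone marrow and 277, 300 and 378 in fetal liver, without overlap (log2 fold change of 0.55 ± 0.16 at an adjusted p of 0.0243). Leaving out any one of bone marrow replicates 2 or 3 or fetal liver replicates 1 or 2 ended the call (adjusted p = 0.0760, 0.0865, 0.0579 and 0.0649). It was also lost with quantile normalization (adjusted p = 0.0794), with arrays centred on their medians (0.339), and with the mean of its probe sets (0.0631).

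The 7 sterol enzymes that were not called had log2 fold changes between -0.45 and 0.20. Msmo1, a methylsterol oxidase, averaged 1164 ± 142 in bone marrow and 1615 ± 403 in fetal liver (mean ± SD of 3 arrays each). Its log2 fold change of -0.45 ± 0.17 missed the threshold (adjusted p = 0.0659) and passed it without fetal liver replicate 1 (adjusted p = 0.0445). Sqle, the squalene epoxidase that is a slow step of the chain, averaged 930 ± 27.8 in bone marrow and 1054 ± 58.4 in fetal liver (log2 fold change of -0.18 ± 0.10 at an adjusted p of 0.197). Lss, the lanosterol synthase, was at -0.16 ± 0.13 and the lanosterol demethylase Cyp51 at 0.20 ± 0.11 on the log2 fold change scale. The ketoreductase Hsd17b7 and the isomerase Ebp had log2 fold changes of -0.10 each, and Dhcr7, the reductase of the last step, had 0.09. For Cyp51, Hsd17b7, Ebp and Dhcr7 the arrays of the tissues overlapped.

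Of the 5 genes that control SREBP activity, only Insig1 was called (20%, against 36.1% of all tested genes). Insig1, which retains the SREBP and SCAP complex in the endoplasmic reticulum and is itself an SREBP target, had signals of 4185, 3542 and 4060 in bone marrow and 3219, 2291 and 2343 in fetal liver. It was 1.52-fold higher in bone marrow without overlap (log2 fold change of 0.60 ± 0.14 at a limma adjusted p of 0.00807). Fetal liver replicate 1 again lay nearest to bone marrow. With arrays centred on their medians the call was lost (log2 fold change of 0.26 at an adjusted p of 0.0989). Its relative Insig2 averaged 473 ± 18.8 in bone marrow and 584 ± 22.2 in fetal liver and was not called (log2 fold change of -0.30 ± 0.12 at an adjusted p of 0.0720). Further Insig2 probe sets had positive log2 fold changes of 0.29 and 0.11 and were not called either.

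The transcription factors themselves had similar signals in both tissues. Srebf2, the main activator of sterol genes, averaged 2230 ± 88.5 in bone marrow and 2295 ± 74.8 in fetal liver (log2 fold change of -0.04 ± 0.08 at an adjusted p of 0.725). Srebf1, whose forms favour fatty acid genes, averaged 1158 ± 192 in bone marrow and 1045 ± 66.0 in fetal liver (log2 fold change of 0.14 ± 0.13 at an adjusted p of 0.454). Scap averaged 1446 ± 146 in bone marrow and 1371 ± 131 in fetal liver (adjusted p = 0.642). SREBPs are activated by cleavage of the protein, which these arrays do not measure.

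Among the 4 genes of receptor turnover and sterol transport, Mylip alone was called (25%, against 36.1% of all tested genes). Mylip encodes a ubiquitin ligase that sends lipoprotein receptors to degradation. Its signals were 442, 409 and 611 in bone marrow and 188, 123 and 170 in fetal liver, 3.04-fold higher in bone marrow with no overlap (log2 fold change of 1.60 ± 0.22 at an adjusted p of 5.18e-04). Npc1 and Npc2, which move cholesterol out of lysosomes, had log2 fold changes of 0.45 ± 0.17 (adjusted p = 0.0660) and 0.08 ± 0.08 (adjusted p = 0.464). Stard4, a soluble sterol carrier and SREBP target, averaged 2745 ± 152 in bone marrow and 2619 ± 118 in fetal liver (log2 fold change of 0.07 ± 0.08 at an adjusted p of 0.565). With arrays centred on their medians Stard4 reversed and was called lower (log2 fold change of -0.27 at an adjusted p of 0.0477).

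Of the 3 tested genes of LXR and efflux, Abca1 was higher in bone marrow and the others were not called. The share called, 33.3%, was near the 36.1% of all tested genes. Abca1, the transporter that loads cellular cholesterol onto apolipoprotein A1, had signals of 161, 225 and 237 in bone marrow and 99.2, 75.1 and 93.0 in fetal liver. It was 2.31-fold higher in bone marrow without overlap (log2 fold change of 1.21 ± 0.23 at an adjusted p of 0.00319). Abcg1, the partner transporter that acts on mature lipoproteins, had the opposite sign on the probe set used. Its signals were 2670, 2695 and 2846 in bone marrow against 3732, 2963 and 3193 in fetal liver. Those arrays did not overlap, but the log2 fold change of -0.26 ± 0.10 missed the threshold (adjusted p = 0.0648) and passed it without fetal liver replicate 2 (adjusted p = 0.0261). A further Abcg1 probe set, of much lower signal, had a positive log2 fold change and was not called (0.25 ± 0.25, limma adjusted p = 0.509 over all filtered probe sets). Nr1h3, the LXR of macrophages and liver, had low signals of 48, 66 and 52 in bone marrow and 36, 42 and 34 in fetal liver. It was not called, though the arrays did not overlap (log2 fold change of 0.56 ± 0.29 at an adjusted p of 0.168).

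Of the 4 fatty acid genes, the synthase Fasn and the desaturase Scd2 were lower, the desaturase Scd1 was higher, and Acly was not called. The share called was 75% of only 4 genes, against 36.1% of all tested genes. Fasn builds saturated fatty acids; its signals were 1097, 1042 and 1095 in bone marrow and 1558, 1805 and 1539 in fetal liver (log2 fold change of -0.60 ± 0.10 at an adjusted p of 0.00186). Scd1 and Scd2 are closely related enzymes that place the first double bond in a saturated fatty acid. Scd2 had 3501, 3493 and 3498 in bone marrow and 5216, 5187 and 5104 in fetal liver, and its log2 fold change of -0.56 ± 0.07 had the smallest adjusted p of the members (2.09e-04). Scd1 had 410, 569 and 707 in bone marrow and 263, 98.3 and 145 in fetal liver, 3.53-fold higher in bone marrow (log2 fold change of 1.82 ± 0.34 at an adjusted p of 0.00308). So these 2 desaturase genes were called in opposite directions, each with separated arrays. Acly, which makes cytosolic acetyl-CoA from citrate, averaged 5914 ± 194 in bone marrow and 6050 ± 287 in fetal liver (log2 fold change of -0.03 ± 0.07 at an adjusted p of 0.742).

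The arrays of fetal liver were not alike for these genes. For 11 of the 15 called members, fetal liver replicate 1 was the fetal liver array nearest to the bone marrow mean, against 53.3% of the 4208 genes called over the whole array. Set against fetal liver replicates 2 and 3, replicate 1 deviated by a median of -0.28 on the log2 scale in the 10 members lower in bone marrow and by 0.37 in the 5 higher members. Set likewise against the other arrays of its tissue, fetal liver replicate 2 deviated by 0.133 and -0.355. Fetal liver replicate 3 deviated by 0.225 and 0.107. The bone marrow arrays deviated by -0.063 to 0.07 in the lower members and by -0.179 to 0.319 in the higher ones. Over all tested genes the median for fetal liver replicate 1 was 0.004, but there genes of both directions can cancel. The deviation over all genes called lower, or all called higher, was not computed. The summed signal of 8 genes of the sorted cells (Itga2b, Slamf1, Kit and 5 megakaryocyte genes) was 23958 to 26744 on the bone marrow arrays, 20350 on fetal liver replicate 1, and 33517 and 32317 on fetal liver replicates 2 and 3. Kit alone went the other way within fetal liver, with 1542 on replicate 1 and 959 and 1173 on replicates 2 and 3. The part of these genes in the result was not tested. Without fetal liver replicate 1, 11 members were lower and 4 higher.

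**Figure D3:**
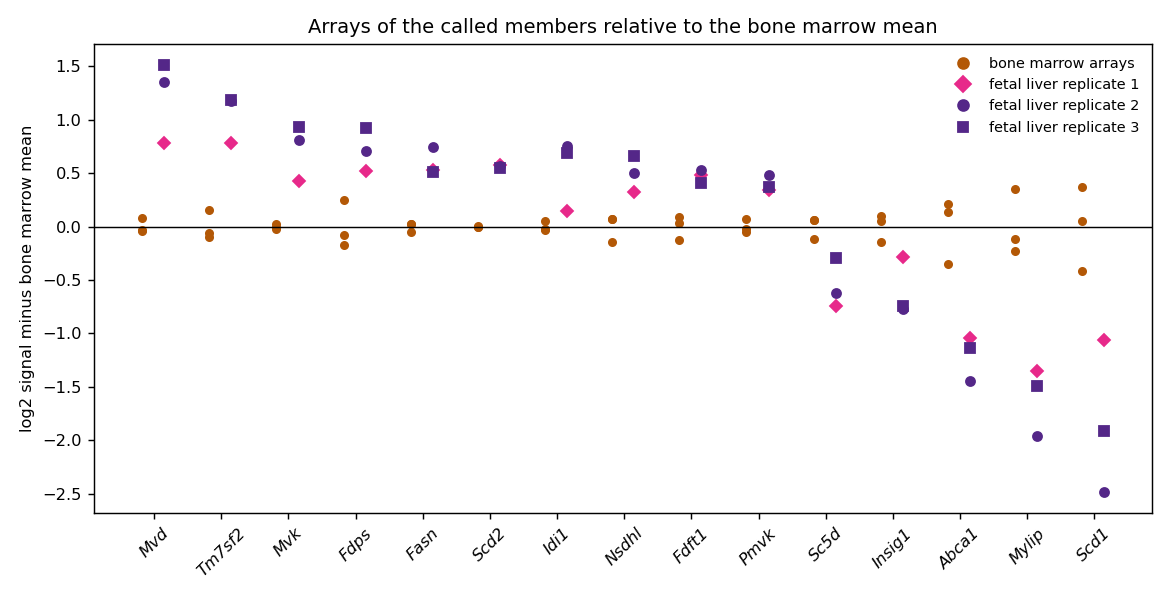
Log2 signal of each array minus the bone marrow mean for the 15 called genes (orange, bone marrow arrays; pink diamonds, fetal liver replicate 1; purple, fetal liver replicates 2 and 3). For 11 of the 15 genes the pink diamond is the fetal liver point nearest to 0.

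Markers of other cell types differed between the samples, and they are given over all matched markers, since a marker near 0 in fetal liver passed the filter only through bone marrow. All 13 granulocyte and monocyte markers were higher on every bone marrow array than on any fetal liver array, with summed signals of 55424 to 69434 in bone marrow and 5099 to 7057 in fetal liver. The same separation upward was seen for 10 of 11 macrophage markers (sums of 1964 to 2363 in bone marrow and 314 to 329 in fetal liver), and Cd163, C1qc, Spic and Vcam1 lay below the signal level of unspiked control probe sets on all fetal liver arrays. It was also seen for 4 of 5 mast cell and basophil markers (3603 to 3907 in bone marrow and 154 to 280 in fetal liver) and 6 of 7 lymphoid markers (1859 to 3245 in bone marrow and 223 to 313 in fetal liver). Of 6 erythroid markers, 2 (Slc4a1 and Alas2) were separated upward, Epor downward, and 3 overlapped. Of 6 endothelial markers, 1 (Emcn) was separated upward and 3 (Kdr, Tek and Egfl7) downward, with sums of 1929 to 2194 in bone marrow and 3342 to 4276 in fetal liver. Of 7 liver cell markers, Afp and Hnf4a were separated upward, Alb and Apoa2 downward, and 3 overlapped; Alb had 2.14 to 16.3 in bone marrow and 26.4 to 30.9 in fetal liver. Of 5 fat cell and marrow stroma markers, Cxcl12, Col1a1 and Pparg were separated upward, while Adipoq and Lepr overlapped near the control level of 10.6, and the sums were 103 to 155 in bone marrow and 39.8 to 68.1 in fetal liver. Abca1, Mylip, Insig1, Scd1 and Sc5d were higher in the same samples, and the markers' part in the members' results was not tested. In sorted bulk RNA, fewer cells of a type and less RNA per cell cannot be told apart.

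The genes of the sorted cells were not alike in both tissues either. Itga2b (CD41) and Slamf1 (CD150), which define the sort, were not called, and Kit was higher in bone marrow (log2 fold change of 0.62 at an adjusted p of 0.0141). Of the megakaryocyte genes, Gp9, part of a platelet adhesion receptor, was lower, with 1275 ± 141 in bone marrow and 3047 ± 789 in fetal liver (log2 fold change of -1.23 at an adjusted p of 8.56e-04). Tubb1, the tubulin of platelets, was 10.6-fold lower, with 228 ± 24.5 in bone marrow and 2568 ± 1015 in fetal liver (log2 fold change of -3.41 at an adjusted p of 2.52e-05). Pf4, Itgb3 and Vwf were not called. The part of these genes in the members' results was not tested.

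The wider lipid pathways were taken from 5 further lists of 73 genes, of which 62 were tested. Over these, 12 were higher and 12 lower in bone marrow, or 38.7% called, close to the 36.1% of all tested genes. Among 21 genes of fatty acid and glycerolipid synthesis, 4 were higher and 3 lower (33.3% called). The higher ones included genes of triglyceride synthesis: Lpin1 (log2 fold change 1.39 ± 0.18), a phosphatidate phosphatase, and Dgat2 (1.34 ± 0.24), which completes triglyceride. Acacb, the carboxylase linked to control of fatty acid oxidation, was also higher (1.48 ± 0.22). Elovl6, the elongase that acts on the product of Fasn, was lower, at 866 ± 57.3 in bone marrow and 1278 ± 43.5 in fetal liver (log2 fold change of -0.56 ± 0.10 at an adjusted p of 0.00268).

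All 10 tested users of the isoprenoid branch had negative log2 fold changes, against 6320 of all 11645 tested genes, and 2 of the 10 (20.0%) were called lower, near the 17.8% of all tested genes. Icmt, which methylates prenylated proteins, averaged 1878 ± 61.2 in bone marrow and 2527 ± 68.7 in fetal liver (log2 fold change of -0.43 ± 0.08 at an adjusted p of 0.00326). Pdss2, a subunit of the enzyme that makes the ubiquinone tail, had the same log2 fold change of -0.43 ± 0.09 (adjusted p = 0.00643). Of 8 genes of SREBP processing and sterol-regulated degradation, 37.5% were called, near the 36.1% of all tested genes. Erlin1, an endoplasmic reticulum protein that restrains SREBPs, was higher (0.36 ± 0.09, adjusted p = 0.0119). Mbtps2, the protease that makes the second SREBP cut, was lower (-0.37 ± 0.12, adjusted p = 0.0350), and so was the ATPase gene Vcp (-0.40 ± 0.11, adjusted p = 0.0202).

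LXR partners and targets went both ways, with 2 higher (16.7%) and 4 lower (33.3%) of 12 tested. Over all tested genes 18.3% were higher and 17.8% lower, and the counts of these short lists are a description. Apoe, an apolipoprotein that accepts effluxed cholesterol and an LXR target in macrophages, had signals of 89, 103 and 95 in bone marrow and 535, 337 and 241 in fetal liver (log2 fold change of -1.88 ± 0.28 at an adjusted p of 7.90e-04). It was thus lower in bone marrow, where Abca1 was higher. Rxra, a partner receptor of LXRs, averaged 159 ± 13.0 in bone marrow and 397 ± 61.2 in fetal liver (log2 fold change of -1.31 ± 0.17 at an adjusted p of 4.03e-04). Lpl, the lipoprotein lipase, averaged 295 ± 6.94 in bone marrow and 88.2 ± 7.71 in fetal liver (log2 fold change of 1.74 ± 0.17 at an adjusted p of 8.53e-05), and the transporter Abca2 was also higher (0.80 ± 0.18). Of 11 tested genes of sterol uptake, storage and oxysterol enzymes, 5 (45.5%) were higher, counting Lrp1, and 1 (9.09%) was lower. Nceh1, which hydrolyses stored cholesterol ester in macrophages, had a log2 fold change of 1.11 ± 0.24 and the oxysterol-binding protein Osbpl8 one of 0.75 ± 0.17. Scarb1, the receptor for high-density lipoprotein, was lower (-0.52 ± 0.13, adjusted p = 0.0121). Lrp1, a large endocytic receptor, averaged 79.4 ± 18.3 in bone marrow and 9.90 ± 2.96 in fetal liver, where 2 of 3 arrays lay below the control level. Lrp1 passed the filter only through bone marrow, so its call among the 5 was partly fixed by the filter.

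Several members were measured by more than 1 probe set. The called members had 14 further probe sets, of which 7 were tested and the others did not pass the filter on low signal. Of the 7 tested, 5 were called in the same direction, 2 were not called and 0 were called in the opposite direction. Pmvk, Tm7sf2, Nsdhl, Insig1, Mylip and Fasn had only 1 probe set each, and no further probe set of Abca1, Scd1 or Fdps was tested. Each of these calls therefore rests on 1 probe set. A further Mvd probe set had 93.8, 80.9 and 87.5 in bone marrow and 161, 253 and 327 in fetal liver (log2 fold change of -1.44 ± 0.27 at an adjusted p of 0.00317 in a fit over all filtered probe sets). The further Scd2 probe sets had log2 fold changes of -0.70 and -1.11, and the further ones of Mvk and Fdft1 -1.01 and -0.62. The probe sets that were not called belonged to Idi1 (-0.32, adjusted p = 0.140) and Sc5d (0.34, adjusted p = 0.329).

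**Figure D4:**
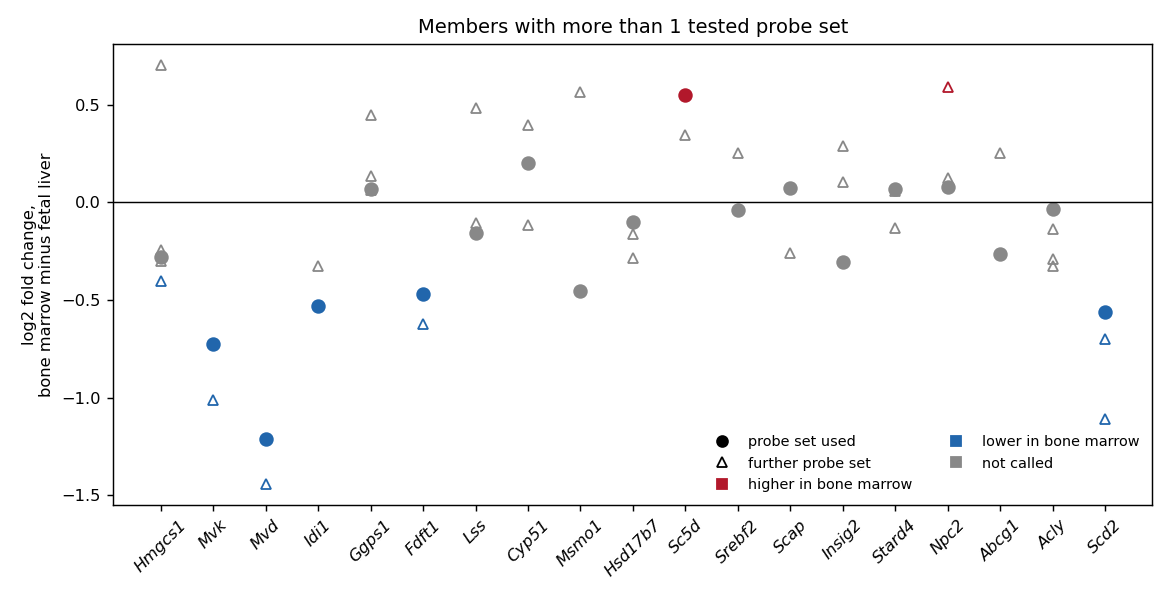
Log2 fold change, bone marrow minus fetal liver, of every tested probe set of the 19 members that had more than 1 (circles, probe set used; open triangles, further probe sets; colours as called in a fit over all filtered probe sets). The further probe sets of Mvk, Mvd, Fdft1 and Scd2 lie below 0 and were called lower in bone marrow, while those of Ggps1, Cyp51 and Stard4 were not called.

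The scale of the arrays bears on small differences. The medians of the bone marrow arrays were 65.9 to 74.6 and those of fetal liver 52.0 to 59.1, while the mean trimmed by 2% at each end was 500 on every array. As deposited, 50.7% of called genes were higher in bone marrow. With arrays centred on their medians that share was 20.0%, all genes together had a median log2 fold change of -0.38, and 21 members were lower and 3 (Mylip, Abca1 and Scd1) higher. On that scale the log2 fold changes of Mvd (-1.55), Tm7sf2 (-1.38), Mylip (1.27), Abca1 (0.87) and Scd1 (1.48) kept their sign.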

How the data were processed

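Sorted progenitors from 2 tissues were measured on 6 arrays, 3 in each group, grouped by their titles. Each probe set has 1 deposited intensity signal per array on a linear scale, which the submitters' processing notes credit to MAS5 with no version. MAS5 subtracts a mismatch-based background without an offset, so low signals spread widely. The number of arrays limits the precision: an exact permutation test of 3 against 3 cannot go below 0.1 and was not used. No arrays were identical.

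Signals were log2-transformed. Probe sets above the 40th percentile of mean log2 signal (22.9) were kept, and the brightest single-symbol probe set of each gene was fitted with limma (version 3.58.1, R 4.3.3) with tissue as the only term and an intensity-trended prior. P-values were adjusted by Benjamini-Hochberg over 11645 genes. The fit was tested on simulated data. The control level (10.6) is the 95th percentile of signals from 27 bacterial control probe sets that were not spiked. Promoters came from RefSeq (GRCm38.p6) by symbol; 34 of 34 member symbols matched its gene table by Entrez identifier. Figures used Python 3.11.15 and matplotlib 3.10.9.

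The members, lists, tests and alternatives were chosen with earlier results of these data known. Called members are given in full, and up to 4 called genes per further list by smallest adjusted p. Members not called are given by group means, or by array values where the log2 fold change reached 0.5 in size. The array values of Abcg1 were added after they were seen. Lss, Cyp51, Hsd17b7, Ebp, Dhcr7, Npc1 and Npc2 are given by log2 fold change without group means. Alternatives were other filters, scalings, an offset, a floor at the control level, averaging the probe sets of a gene or taking each alone, other variance priors, array weights, a replicate block and leaving out each array; centring on the median of the tested genes was added after seeing the data.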

Additional observations from a re-analysis of the deposited data

How the results depend on the processing

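Of the 15 called members, 10 kept their call under every one of 18 alternatives they entered (single further probe sets not counted), and the exceptions were Pmvk, Idi1, Nsdhl, Sc5d and Insig1. Of the 19 members not called, 14 were called under at least 1 alternative and 12 changed sign under at least 1. Centring arrays on the median of all probe sets moved the counts most, to 3 members higher, 21 lower, 14 of 18 mevalonate and sterol enzymes lower and 6725 genes called in all, and turned Stard4 to -0.27; by construction it lowers every bone marrow value against fetal liver. Centring on the median of the tested genes, added after seeing the data, gave 5 higher and 14 lower. Leaving out 1 array at a time gave 4 to 5 members higher, 8 to 11 lower, 6 to 9 of the enzymes lower, and 2865 to 4436 genes called. The titles give both tissues replicate numbers 1 to 3, and nothing says that a number marks a shared litter or day. Deviations of same-numbered arrays correlated at -0.081, 0.071 and -0.109. With 3 arrays in each tissue these values cannot decide whether same-numbered arrays were handled together. With the replicate block, 5 members were higher, 10 lower and 3847 genes called. Idi1 also lost its call with no intensity trend (adjusted p = 0.0619). Abca1 and Nr1h3, the dimmest members, were not fitted with the filter at the 60th percentile, so low signal limits what is said of them.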

Other observations

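Among members that were not called, 2 had a further probe set that was called. One of 4 further Hmgcs1 probe sets had signals of 1481, 1412 and 1535 in bone marrow and 1874, 1860 and 2138 in fetal liver (log2 fold change of -0.41 ± 0.10 at a limma adjusted p of 0.0152 in a fit over all filtered probe sets). Another of the 4, of much lower signal, had the opposite sign (0.70 ± 0.30, adjusted p = 0.118). A further Npc2 probe set had 350, 335 and 308 in bone marrow and 219, 203 and 237 in fetal liver (log2 fold change of 0.59 ± 0.16 at an adjusted p of 0.0207), while the probe set used for Npc2 was at 0.08. Msmo1 had 2 probe sets of opposite sign, at -0.45 and 0.57, and neither was called. Lss, Cyp51, Srebf2, Scap, Insig2, Stard4 and Abcg1 also had a further tested probe set of opposite sign to the one used, and none of these was called.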
